A study of Mus musculus with 4 samples.

Results

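The nuclear genes for subunits of the oxidative phosphorylation complexes were followed across mouse embryonic stem (ES) cells, mouse embryonic fibroblasts (MEFs) and an induced pluripotent stem (iPS) cell clone. Members were taken by gene name: names starting with Ndufa, Ndufb, Ndufc, Ndufs or Ndufv, the 4 Sdh genes, and names starting with Uqcr, Cox4 to Cox8 or Atp5. The rule found 116 probes of 83 genes, out of 27734 genes on the array. Of the 83, 79 encode subunits of complexes I to V. The other 4 only carry a matching name: Ndufaf1 and Ndufa12l (Ndufaf2) are assembly factors of complex I, Atp5s (Dmac2l) is not a structural subunit, and Cox4nb (Emc8) belongs to a complex of the endoplasmic reticulum. Filters left 81 of the 83 genes, and 77 of the 79 subunits, to be tested. Cox4i2 and Cox8b, forms of complex IV subunits used in a few tissues, were too dim.

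Total RNA was measured on 4 Agilent 2-colour whole mouse genome arrays, all on the same slide. Green (Cy3) held the ES cell line CGR8.8 on all 4 arrays. Red (Cy5) held MEFs harvested after several passages on 2 arrays and the iPS clone on 2 arrays. Transduction preceded the harvest of the iPS clone by 30 days, and ES and iPS cells were grown with leukemia inhibitory factor at 1000 IU/ml. The labels do not name the transduced factors or the strain and origin of the MEFs, and the iPS group is 1 clone. Arrays of a group are labelled as biological replicates without a word on separate cultures, so the spread behind the p-values is that between the samples measured and may be technical.

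Oxidative phosphorylation makes ATP at the inner mitochondrial membrane. Complex I (NADH dehydrogenase) and complex II (succinate dehydrogenase) pass electrons to ubiquinone, complex III passes them to cytochrome c, and complex IV (cytochrome c oxidase) passes them to oxygen. Complexes I, III and IV pump protons, and complex V (ATP synthase) lets the protons flow back and makes ATP. Several complex IV subunits exist as a widely used form and as forms typical of heart and muscle, lung or testis. Pluripotent stem cells are known for relying strongly on glycolysis while keeping a working respiratory chain, and fibroblasts for a more developed mitochondrial network.

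Each channel had 61.1% to 63.4% of its gene probes well above background. Across genes, replicate arrays correlated in their log2 ratios at 0.991 (MEF) and 0.994 (iPS). Markers went with the labels of MEFs: 8 of 8 ES cell markers were lower and 7 of 8 fibroblast markers higher in MEFs than in ES cells. All 8 ES cell markers were higher in the iPS clone than in MEFs. In the clone over ES cells, 5 of 8 ES cell markers were higher and 1 lower, and 6 of 8 fibroblast markers were lower (median -1.70). The clone and the ES cells thus differed in these markers, and the part of this in ratios over ES cells was not tested. Values below are log2 ratios ± standard error (SE) of a limma fit with n = 2 arrays per group. Each gene was taken by its brightest tested probe unless stated otherwise. A gene was called where its Benjamini-Hochberg adjusted p from limma was under 0.05 and its change at least 2-fold, which is a log2 ratio of 1. The p-value rarely decided a call: 15490 of 18549 genes passed it in MEFs over ES cells, so the fold threshold did. Dyes were not swapped, so a gene's own dye effect stays in every ratio over ES cells and cancels only in iPS cells over MEFs.

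Most subunits lay within 2-fold of the ES level in both cell types. In MEFs, 6 of 77 subunits rose and 1 fell (all genes tested: 14% higher and 13.9% lower), with a median of 0.17 against -0.011 over all genes. In the iPS clone, 7 of 77 rose and 0 fell (all genes: 9.1% higher and 12.1% lower). In that comparison 12 subunits lay below 0 at an unadjusted limma p under 0.05, all by less than 2-fold, and the median was 0.22 against 0.009. Between the clone and MEFs, 5 were higher in the clone and 1 was lower (all genes: 17% higher and 19.1% lower), and the median difference was 0.009 against 0.027. The counts of rises in the clone over ES cells were thus at the level of the background, and the other counts of calls below it. Both counts of higher subunits in the clone include Cox8c, which passed the filter through the clone alone and is no support for a difference. In such bulk RNA, fewer cells of a type and less RNA per cell cannot be told apart.

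The scale bears on every ratio over ES cells. The subunits were bright: 60 of 77 lay above the 90th percentile of brightness among the genes tested, at a median percentile of 95.7. The loess step sets ratios against those of genes of like brightness. With each array centred on its median instead, the median of all genes shifted to 0.19 in MEFs and 0.18 in the clone, the median of the subunits to 0.93 and 0.94, and 36 and 38 member genes were called higher. The MEF calls also rested on the background correction: with its normexp parameters fitted over all spots, 2 member genes were called higher and 0 lower in MEFs (0.609% and 0.566% over all genes), and 5 MEF calls were lost. Of these, Cox7a2 (1.14, limma adjusted p = 0.051) and Uqcrh (1.11, limma adjusted p = 0.17) stayed past 2-fold and missed the p threshold, while Ndufa3 (0.91), Cox6b1 (0.63) and Cox7a1 (-0.77) fell below 2-fold too. Between the clone and MEFs the subunit median was -0.032 under median centring. With normexp over all spots, a smaller share of all genes was called between them. Cox6a1 then moved from -1.01 to -0.40 in that comparison and lost its call.

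**Figure D1:**
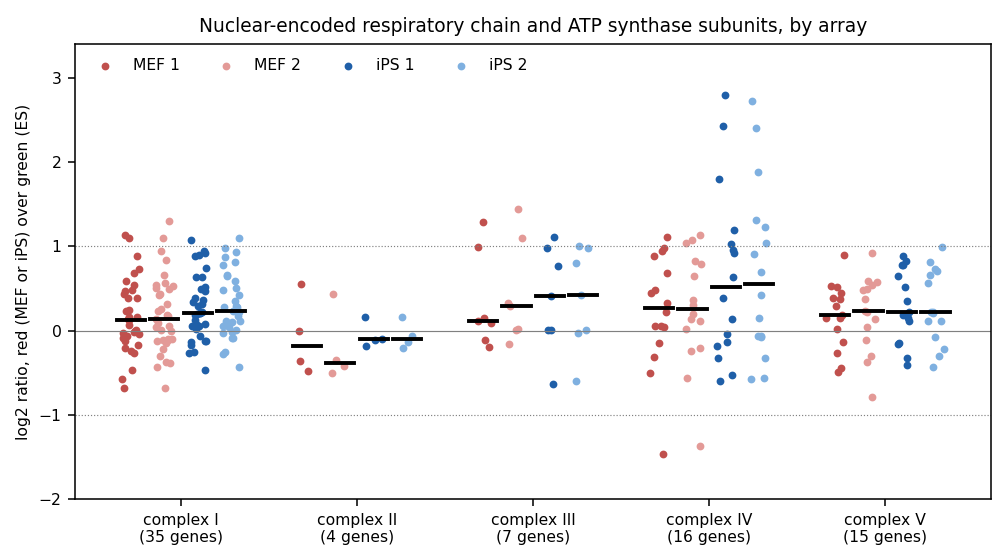
Log2 ratio of red (MEF or iPS) over green (ES) for each tested subunit gene, by complex (x axis) and array (colour), with the array's median as a bar and dotted lines at 2-fold. Each gene is shown by its brightest probe. Medians of complexes I, III, IV and V lie above 0 on all 4 arrays and those of complex II below (complex II turned above 0 under median centring, and complex V below 0 in MEFs with normexp over all spots), and the widest spread is in complex IV.

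Complex I takes electrons from NADH. All 35 of its genes were tested, 7 for core subunits that carry out catalysis and 28 for accessory subunits. In MEFs 2 rose, Ndufa3 and Ndufa8, both accessory, with a median of 0.09 and a range from -0.68 (Ndufs6) to 1.22. In the clone 1 rose over ES cells, the accessory subunit Ndufa11, with a median of 0.25. By brightest probes no subunit fell by limma at 2-fold. At an unadjusted limma p under 0.05, 8 in MEFs and 3 in the clone lay below 0. A dimmer Ndufab1 probe was called lower in the clone than in ES cells (-1.03).

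Ndufa11, a membrane arm subunit, gave -0.57 and -0.38 on the MEF arrays and 1.08 and 1.10 on the iPS arrays. The groups did not overlap, and MEFs lay below ES cells while the clone lay above. Its ratio was -0.47 ± 0.06 in MEFs and 1.09 ± 0.06 in the clone, and the clone exceeded MEFs by 1.56 ± 0.08, or 2.96-fold (limma adjusted p = 2.6e-06). Another Ndufa11 probe gave -0.30 and 1.30 and was also called in the clone, but it shares a run of 50 bases with the first. Its measured probe lies on mm8 chromosome 17, 56402942 to 56403001.

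Ndufa3 gave 1.14 and 1.30 on the MEF arrays and 0.93 and 0.98 on the iPS arrays, so by this probe both cell types were above ES cells. Its mean was 1.22 ± 0.05 in MEFs, 2.33-fold, and 0.95 ± 0.05 in the clone, just under the threshold. A dimmer Ndufa3 probe gave 1.04 in MEFs, also called, and 0.12 in the clone. Ndufa8, an intermembrane space subunit, had nearly equal values on the MEF arrays, 1.10 and 1.10, and 0.94 and 0.93 on the iPS arrays. Neither differed by 2-fold between the clone and MEFs (-0.27 ± 0.08 and -0.16 ± 0.06). The largest uncalled value of complex I in MEFs was that of Ndufb10, 0.92 ± 0.05, with 0.85 in the clone.

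The core subunits carry the flavin and the iron-sulfur centres. Ndufs1, the largest iron-sulfur subunit, stood at -0.15 in MEFs and 0.29 in the clone, and Ndufv1, which binds NADH and flavin, at -0.17 and 0.18. Ndufs7, near the quinone site, had 0.28 and 0.29, and Ndufs8, another iron-sulfur subunit, 0.65 and 0.06. Of the 7 core subunits 0 were called in any of the 3 comparisons at 2-fold, although 5, 5 and 6 of them had an unadjusted p under 0.05 in limma. In the clone over MEFs, the flavoprotein subunit Ndufv2 (0.83 ± 0.07) and the accessory subunit Ndufb5 (0.82 ± 0.08) came nearest to 2-fold after Ndufa11.

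Complex II is the only one built entirely from nuclear genes, and it also serves the citric acid cycle. None of its 4 genes was called in any comparison by limma at 2-fold, while 3, 2 and 3 had an unadjusted p under 0.05. Sdha, the flavoprotein, gave -0.48 and -0.51 on the MEF arrays and -0.11 and -0.13 on the iPS arrays by its brightest probe. A dimmer Sdha probe gave -0.26 in MEFs and 0.31 in the clone, so the direction of Sdha in the clone is not settled. Sdhb, the iron-sulfur subunit, had the opposite sign in MEFs, with 0.55 and 0.44, and 0.16 and 0.17 in the clone. The membrane anchors stood at -0.18 ± 0.08 (Sdhc) and -0.39 ± 0.04 (Sdhd) in MEFs and at -0.19 and -0.08 in the clone. Sdhc was uneven in MEFs, -0.007 on array 1 and -0.35 on array 2. Under median centring the signs of Sdhc and Sdhd turned in both cell types and that of Sdha in the clone.

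Complex III passes electrons from ubiquinol to cytochrome c. All 7 genes of the rule were tested: 2 rose in MEFs and 1 in the clone. By brightest probes no gene fell or differed by 2-fold between the clone and MEFs by limma. At an unadjusted limma p under 0.05, 1 lay below 0 in each ratio over ES cells and 4 differed between the clone and MEFs. A dimmer Uqcrq probe was called lower in MEFs (-1.40) and higher in the clone than in MEFs (1.14). Uqcrh, the hinge protein, gave 1.29 and 1.45 in MEFs and 1.12 and 0.98 in the clone. It was the subunit with the highest ratio in MEFs, 1.37 ± 0.06 or 2.58-fold, and reached 1.05 ± 0.06 in the clone, where its call was lost without iPS replicate 1 (0.98). Uqcr, the smallest subunit (Uqcr11), was at 0.99 and 1.10 on the MEF arrays and 0.98 and 1.00 on the iPS arrays. Its MEF call was lost without MEF replicate 2 (0.99), and in the clone its mean of 0.99 lay just below the threshold.

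Of the other complex III genes of the rule none was called by its brightest probe. Uqcrfs1, the Rieske iron-sulfur protein, stood at 0.06 ± 0.05 in MEFs and -0.01 ± 0.05 in the clone. The core proteins Uqcrc1 and Uqcrc2 stood at 0.21 and -0.18 in MEFs and at 0.41 and 0.01 in the clone. Uqcrb, a ubiquinone-binding subunit, had 0.22 and 0.78, and the clone exceeded MEFs by 0.56 ± 0.07. Uqcrq, a small subunit, had -0.04 and -0.61.

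Complex IV reduces oxygen. Of its 18 nuclear genes 16 were tested. In MEFs 2 rose and 1 fell, in the clone 5 rose over ES cells, and between the clone and MEFs 4 were higher in the clone and 1 was lower. Among the 12 widely used subunits, 2 rose in MEFs (Cox6b1 and Cox7a2) and 2 in the clone (Cox5a and Cox6c). Among the 4 tested tissue forms, 1 fell in MEFs (Cox7a1) and 3 rose in the clone (Cox6b2, Cox7a1 and Cox8c). Cox8c passed the filter on dim probes through the clone alone, so it adds no support to the counts of rises.

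Cox5a, a matrix-side subunit, gave 0.04 and 0.20 on the MEF arrays and 1.19 and 1.31 on the iPS arrays. The arrays of the 2 groups did not overlap. Its mean was 0.12 ± 0.06 in MEFs and 1.25 ± 0.06 in the clone, which exceeded MEFs by 1.13 ± 0.08, or 2.19-fold (limma adjusted p = 1.5e-05). Its partner Cox5b stood at -0.26 in MEFs and 0.14 in the clone. Cox6c had 0.44 and 0.36 in MEFs and 1.03 and 1.23 in the clone, a difference of 0.72 ± 0.09 that did not reach 2-fold.

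Cox6a1, the widely used form of a regulatory subunit, was by brightest probes the only subunit called lower in the clone than in MEFs. Dimmer probes of the complex I genes Ndufb8 (-1.97) and Ndufab1 (-1.5) were called lower too. Cox6a1 gave 0.94 and 0.82 on the MEF arrays and -0.18 and -0.08 on the iPS arrays. The difference was -1.01 ± 0.07, at the threshold: it was -0.95 without MEF replicate 1, -0.96 without iPS replicate 1 and -0.95 with quantile normalization between arrays, none of them called. With normexp over all spots it was -0.40 (limma adjusted p = 0.56). The Cox6a1 probe had a background mark on all 4 arrays, so it has no value where background-marked spots were left out. Cox6a2, the heart and muscle form, stood at -0.19 ± 0.05 in MEFs and -0.58 ± 0.05 in the clone.

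Cox6b1 and Cox7a2 were the widely used forms that rose in MEFs. Cox6b1 gave 1.11 and 1.08 there and 0.39 and 0.42 in the clone. Cox7a2 gave 0.98 and 1.13 in MEFs and 0.92 and 1.04 in the clone. Its mean was 1.06 ± 0.06 in MEFs, 0.98 without MEF replicate 2, and 0.98 in the clone. A dimmer Cox7a2 probe gave 1.34 in MEFs and 1.175 in the clone and was called in both. The 2 Cox7a2 probes share a run of 48 bases. The widely used Cox8a stood at 0.96 ± 0.05 and 0.67 ± 0.05, Cox7b at 0.74 and 0.94, and Cox4i1, the form of Cox4 used in most tissues, at 0.09 and -0.32. Cox7c had -0.53 in MEFs and -0.54 in the clone, and Ndufa4, now counted with complex IV, 0.31 and -0.06. Cox7a2l, a factor in joining complexes III and IV, stood at 0.18 and -0.10.

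**Figure D2:**
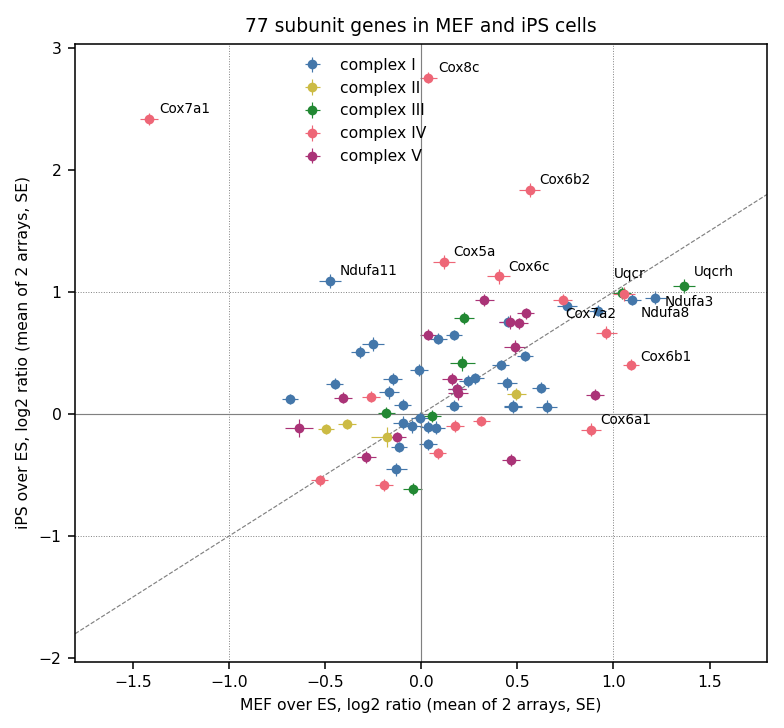
Mean log2 ratio of each tested subunit in iPS over ES cells (y axis) against MEFs over ES cells (x axis), with SE bars (n = 2 arrays) and colour by complex. Called subunits are named, dotted lines mark 2-fold, and the dashed line marks equal ratios. Cox7a1, Cox8c, Cox6b2, Cox5a and Ndufa11 lie above the dashed line by at least 2-fold and Cox6a1 below it. Both axes share the ES cells.

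The tissue forms gave the largest values of the whole set. Cox7a1, the heart and skeletal muscle form of Cox7a, gave -1.46 and -1.37 on the MEF arrays and 2.43 and 2.40 on the iPS arrays. It was thus lower than ES cells in MEFs and higher in the clone, on every array. Its ratio was -1.42 ± 0.05 in MEFs (2.67-fold lower) and 2.42 ± 0.05 in the clone (5.34-fold higher), and the clone exceeded MEFs 14.2-fold (3.83 ± 0.07, limma adjusted p = 2.6e-08). In MEFs the Cox7a1 call was lost with normexp over all spots (-0.77). Its partner Cox7a2 differed by -0.07 ± 0.08 between the clone and MEFs. Of 7 tested muscle markers, 5 were higher in MEFs than in ES cells and 5 lower in the clone than in MEFs. In the clone over ES cells 1 rose (Myh3, an embryonic myosin, 1.68) and 2 fell, and their part in the Cox7a1 value was not tested.

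Cox8c, the testis form of Cox8, gave 0.05 and 0.02 in MEFs and 2.79 and 2.72 in the clone. It was not well above background on any of the 4 ES or the 2 MEF channels and was on both iPS channels. In the fit its clone value stood at 2.76 over ES cells and 2.72 over MEFs, both limited by background. It entered the fit through the clone alone, so its place among the rises is no support for a difference. Cox6b2, the testis form of Cox6b, gave 0.49 and 0.64 in MEFs and 1.79 and 1.88 in the clone. Its mean was 1.84 ± 0.06 in the clone, 3.57-fold, and the clone exceeded MEFs by 1.27 ± 0.08, while its partner Cox6b1 differed by -0.69 ± 0.06. Cox4i2, the lung form of Cox4, was above background on 1 MEF channel only, and Cox8b, the muscle form of Cox8, on none.

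The array tells these pairs apart by sequence. The first 30 of the 60 bases of each probe are shown, because the isoform result rests on these probes, with their mm8 positions.
Cox6b1 (widely used; chr7:30333316-30334812, minus strand): aggagtcaggatggctgaagacatcaagac
Cox6b2 (testis; chr7:4354973-4355032, minus strand): ggaactttcccgggcaaaatatgaccttgc
Cox7a2 (widely used; chr9:79541104-79541163, minus strand): aactgagctcttctttggggatcaatattt
Cox7a1 (heart and muscle; chr7:29894078-29894689, plus strand): acaacgtcctgtacagactgaccatgacgc
Cox8a (widely used; chr19:7282281-7282340, minus strand): tcatgttattcaattccagtcacctcttct
Cox8c (testis; chr12:103301518-103301576, plus strand): gcatcatatggacgacgaacataatctgct
The longest run of bases shared by the full probes was 6 for the Cox6b pair, 6 for the Cox7a pair and 5 for the Cox8 pair. The probes of Cox6b1 and Cox7a1 span 1497 and 612 genomic bases and so cross an intron.

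Genes outside the rule that are the germ cell or testis forms of the same machinery were also higher in the clone. Cyct, the testis cytochrome c, gave 5.25 and 5.23 in the clone (mean 5.24 ± 0.04, 37.8-fold). In MEFs it was not well above background and stood at -1.65, limited by background, a call lost with normexp over all spots (-0.82). Cycs, the cytochrome c of other tissues, stood at 0.15 in MEFs and 0.23 in the clone. Slc25a31, the germ cell ADP/ATP carrier, stood at 2.67 ± 0.07 in the clone and was not well above background in MEFs. Its relatives differed from it: Slc25a5 had 0.33 in the clone, and Slc25a4, the heart and muscle form, -0.91 in the clone and 0.89 in MEFs. Cox7b2, the testis form of Cox7b, stood at 2.07 ± 0.08 in the clone. It was not well above background in MEFs, where its ratio was -0.36, uncalled, and -2.28, called, with the scanner software's ratio. It was looked up after the data were seen, since the array lists it under a clone name.

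Germ cell markers moved in the same direction. All 6 on the list (Dazl, Ddx4, Mael, Taf7l, Tex101 and Sycp3) were higher in the clone than in ES cells and than in MEFs. Their median log2 ratio was 2.93 and 2.97 on the iPS arrays and -1.98 and -1.95 on the MEF arrays. Dazl, Taf7l and Sycp3 were not well above background in MEFs, and all 6 were in ES cells. The part of germ cell transcripts in the values of Cox6b2, Cox8c, Cyct, Slc25a31 and Cox7b2 was not tested.

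**Figure D3:**
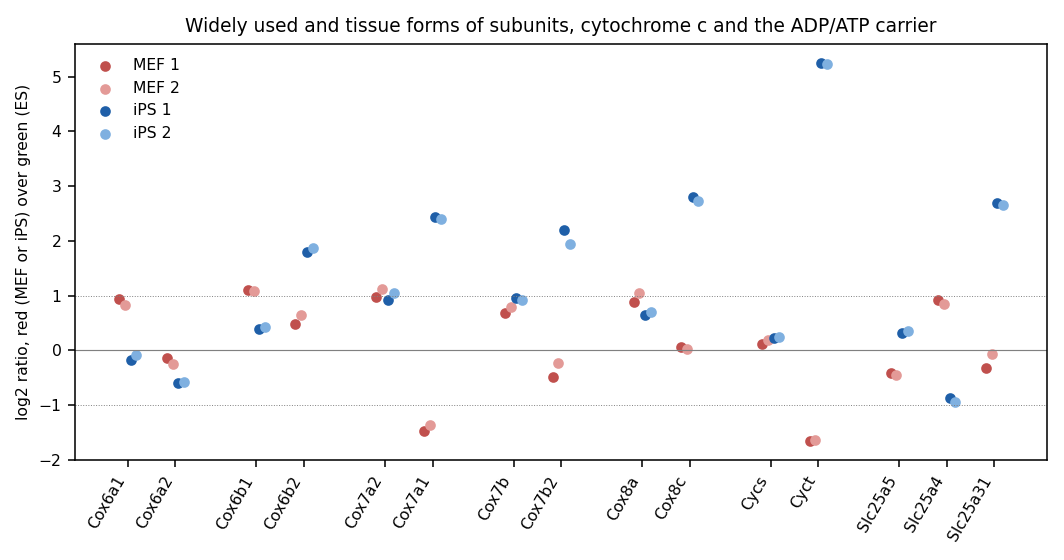
Log2 ratio over ES cells (y axis) on each array (colour) for widely used and tissue forms of complex IV subunits, cytochrome c and the ADP/ATP carrier. The iPS arrays stand above 1 for Cox6b2, Cox7a1, Cox7b2, Cox8c, Cyct and Slc25a31, and below 1 for Cox6a1, Cox6a2, Cox6b1, Cox7b, Cox8a, Cycs, Slc25a4 and Slc25a5. Values of Cox8c in MEFs and ES cells, and of Cox7b2, Cyct and Slc25a31 in MEFs, are limited by background.

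Complex V makes ATP. All 15 genes were tested, and by limma at 2-fold 0 were called in any comparison, although 14, 14 and 9 had an unadjusted p under 0.05 in limma. The medians were 0.19 in MEFs, 0.21 in the clone and 0.12 between them. The MEF median has no settled direction: it was -0.20 with normexp over all spots and 1.16 under median centring. In the F1 head, the brightest probe of the catalytic subunit Atp5b stood at 0.16 ± 0.05 in MEFs and 0.28 ± 0.05 in the clone. The other tested Atp5b probes had the opposite sign, with -0.25 and -0.22 in MEFs and -0.18 and -0.12 in the clone. Its partner Atp5a1 stood at -0.64 ± 0.07 and -0.11 ± 0.07. Atp5a1 was uneven in MEFs, -0.49 and -0.78. In MEFs Atp5b turned to -0.45 with normexp over all spots, and Atp5a1 to 0.35 under median centring. Atp5d, the delta subunit of the central stalk, gave 0.90 and 0.92 in MEFs and 0.11 and 0.21 in the clone, a difference of -0.75 ± 0.07.

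The c ring, which turns with the proton flow, is built from 1 protein made by 3 genes. Atp5g1 gave 0.02 and 0.05 in MEFs and 0.64 and 0.66 in the clone. Atp5g2 gave -0.44 and -0.37 in MEFs and 0.15 and 0.12 in the clone. Atp5g3 gave 0.29 and 0.37 in MEFs and 0.88 and 0.99 in the clone. The 3 genes thus differed from one another in MEFs, and each was higher on both iPS arrays than on either MEF array. The differences were 0.62 ± 0.06, 0.54 ± 0.06 and 0.61 ± 0.07, none of them called at 2-fold. All 3 had a limma adjusted p under 0.05, as had 15043 of all 18549 genes in that comparison, so such a separation is common here.

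In the membrane part, Atp5l was the subunit of complex V with the largest difference between the clone and MEFs, -0.84 ± 0.07, with 0.45 and 0.48 on the MEF arrays and -0.33 and -0.43 on the iPS arrays. Atp5j2 (0.54 in MEFs and 0.82 in the clone) and Atp5k (0.46 and 0.75) were above ES cells in both. In the peripheral stalk the 4 genes ranged from -0.29 (Atp5h) to 0.51 (Atp5j) in MEFs and from -0.35 to 0.74, the same genes, in the clone.

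**Figure D4:**
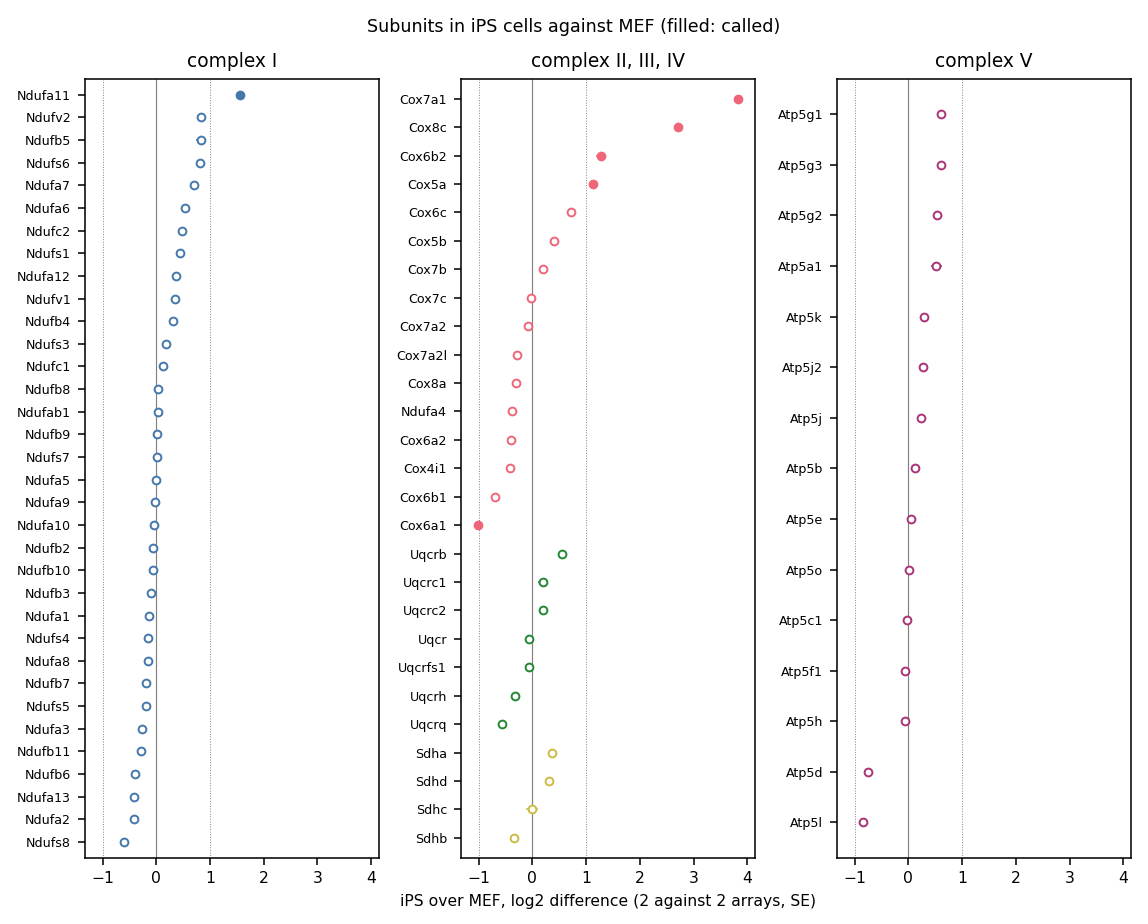
Log2 difference between iPS cells and MEFs for the tested subunits, 1 of complex I left out, by complex, with SE bars (2 against 2 arrays), filled where called. Each subunit is shown by its brightest probe. Cox7a1 at 3.83, Cox8c at 2.72, Ndufa11 at 1.56, Cox6b2 at 1.27 and Cox5a at 1.13 are called higher and Cox6a1 at -1.01 lower, with the others shown between the dotted lines at 2-fold.

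The 4 name matches outside the complexes are given for completeness. The assembly factor Ndufa12l stood at 0.04 in MEFs and 1.02 ± 0.04 in the clone, where it was called, and Ndufaf1 at -0.29 and 0.70. Cox4nb stood at -0.88 and 0.31, and the clone exceeded MEFs by 1.18 ± 0.08, a call. Atp5s stood at 0.53 and 0.46.

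Subunits that the naming rule misses were also looked up. Cyc1, the cytochrome c1 of complex III, stood at -0.82 ± 0.06 in MEFs and -0.07 in the clone. Atpif1, the inhibitor of ATP synthase, stood at 0.04 and 0.31. Of 17 such genes listed, 6 were found by name and tested, and 1, the mitochondrially encoded Cytb, was called: it stood at 1.07 in MEFs and 1.17 in the clone. Ndufv3 of complex I, looked up under its clone name, stood at 1.16 and 1.21.

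Other genes of the pathway were counted from lists. The genes named here were chosen after their values were seen. Over all genes 14% rose and 13.9% fell in MEFs, and 9.1% and 12.1% in the clone. Of 36 tested assembly factors 3 rose and 7 fell in MEFs (among them the copper chaperones Cox17, 1.40, and Sco1, -1.33), and in the clone Acad9 (1.17) and Ndufaf7 (1.04) of complex I assembly rose and Timmdc1 (-2.31) fell. Of 14 tested electron carrier genes 1 rose (Etfb, 1.01) and 3 fell in MEFs, Cyct and, of ubiquinone synthesis, Pdss1 (-1.12) and Coq2 (-1.29), and 2 rose in the clone (Cyct, and Etfb of fatty acid oxidation, 1.22). Of 22 genes of pyruvate dehydrogenase and the citric acid cycle 1 rose in MEFs (Pdk4, a kinase that inhibits pyruvate dehydrogenase, 1.78), 1 fell (Pdhb, -1.28), and 0 were called in the clone at 2-fold, where 18 had an unadjusted limma p under 0.05. Of 9 tested carriers of adenine nucleotides and protons 2 rose in the clone, while 0 were called in MEFs, where 7 had an unadjusted limma p under 0.05. The medians of these lists lay between -0.47 and 0.20 in both ratios over ES cells.

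Of 16 tested regulators of mitochondrial genes 3 were called higher (Ppargc1a, Esrra and, by its brightest probe alone, Tfam) and 2 lower (Nrf1 and Polg2, -1.17) in MEFs, and Pprc1 (1.07) and Ssbp1 (1.02) rose in the clone. Ppargc1a, a coactivator of mitochondrial biogenesis, was well above background in MEFs alone, where it stood at 1.14. It entered the fit through MEFs alone, so its call there is no support for a difference. Esrra, a nuclear receptor that works with it, stood at 1.25 ± 0.05 in MEFs and 0.31 in the clone. Nrf1, an activator of many subunit genes, stood at -1.18 ± 0.08 in MEFs and -0.34 in the clone, and Ppargc1b at -0.59 and 0.58, a difference of 1.18 ± 0.07 between the clone and MEFs. With normexp over all spots these calls were lost in MEFs for Nrf1 (-0.66), Esrra (0.77) and Ppargc1a (0.62), and between the clone and MEFs for Ppargc1b (0.87). With the mean over probes they were lost for Nrf1 (-0.91), Esrra (0.91) and Ppargc1a (0.71), and under median centring for Nrf1 (-0.95). Tfam, which packages mitochondrial DNA, cannot be given a direction: its brightest probe stood at 1.00 ± 0.14 in MEFs, and with the mean over its probes it stood at -0.72.

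Some genes had several probes. In 24 member genes with 36 pairs of tested probes, the pair differed by a median of 0.17 in MEFs over ES cells, 0.30 in the clone over ES cells and 0.18 between them. A pair differed by over 2-fold in 2, 4 and 3 cases. For Ndufb8, the brightest probe gave -0.10 in MEFs and -0.07 in the clone, and a dimmer probe from a cDNA clone gave 1.32 and -0.65. For Uqcrq the values were -0.04 and -0.61 against -1.40 and -0.25. For Ndufab1, the acyl carrier protein, they were 0.24 and 0.27 against 0.46 and -1.03, and for Ndufc1 0.76 and 0.88 against -0.02 and -0.26. Of these dimmer probes, that of Ndufb8 was called higher in MEFs and lower in the clone than in MEFs (-1.97). That of Uqcrq was called lower in MEFs and higher in the clone than in MEFs (1.14). That of Ndufab1 was called lower in the clone than in ES cells and than in MEFs (-1.5). No 2 tested probes of these genes were called in opposite directions in the same comparison.

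**Figure D5:**
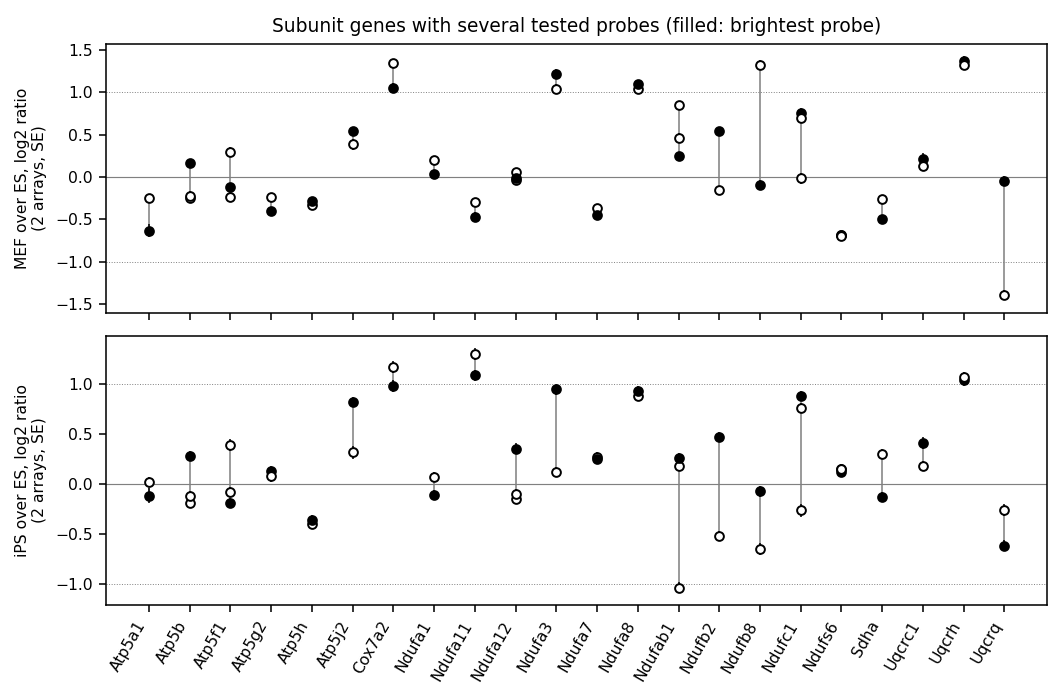
Log2 ratio of MEFs (top) and iPS cells (bottom) over ES cells for every tested probe of the subunit genes with several, with SE bars (n = 2 arrays) and the brightest probe filled. Uqcrh, Ndufa8 and Ndufs6 have probes close together in both panels, and Ndufb8, Uqcrq, Ndufab1 and Ndufc1 have probes more than 2-fold apart in at least 1. The Ndufa8 probes share a run of 40 bases and those of Ndufs6 up to 54, so they overlap, while those of Uqcrh share 6.

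Promoters of the subunits were read from RefSeq (GRCm38.p6), from 250 bases before to 50 bases after the annotated start. A promoter was matched for 65 of the 79 genes. The searched motifs, on both strands, were the NRF1 core GCGCATGC, the GABP/ETS site CCGGAAG, the YY1 site AAGATGG and the ERR site TNAAGGTCA. They were found in 10, 15, 10 and 3 of the 65 (15.4%, 23.1%, 15.4% and 4.62%), and in 2.71%, 8.86%, 6.34% and 1.28% of all 32851 promoters. At least 1 was in 32 of 65 (49.2%) against 17.7% of all. Such a match is a description of the letters and not of binding.

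Stretches around matches are shown for subunits named above, on the gene's strand, with the match in capitals.
Ndufa11 (NRF1, chr17:56717692-56717719): cctgcactgcGCGCATGCGCgcacgcct
Cox6a1 (NRF1, chr5:115349103-115349130): caggaacgggGCGCATGCGCgctctcgc
Atp5k (NRF1, chr5:108434432-108434459): tttcactgcgGCGCATGCGCctttctgg
Sdhb (NRF1, chr4:140961207-140961234): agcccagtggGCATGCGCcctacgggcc
Uqcr (GABP/ETS, chr10:80406871-80406897): tctctcctccCCGGAAGtagatgtcaa
Cox6b1 (GABP/ETS, chr7:30626126-30626152): cctctcgcagCTTCCGGccagtcggaa
Genes with an NRF1 match thus include Ndufa11, which was higher in the clone than in MEFs, Cox6a1, which was lower, and Sdhb and Atp5k, which were not called.

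The 120 bases before the start of the widely used and tissue forms of Cox6b and Cox7a are shown to set their CG content side by side, with each CG in capitals.
Cox6b1 (chr7:30626115-30626234): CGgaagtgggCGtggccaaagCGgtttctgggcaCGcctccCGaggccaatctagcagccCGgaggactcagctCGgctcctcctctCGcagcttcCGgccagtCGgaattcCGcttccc
Cox6b2 (chr7:4753095-4753214): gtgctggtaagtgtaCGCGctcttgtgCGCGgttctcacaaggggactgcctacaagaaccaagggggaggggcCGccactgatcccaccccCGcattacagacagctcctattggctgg
Cox7a2 (chr9:79759854-79759973): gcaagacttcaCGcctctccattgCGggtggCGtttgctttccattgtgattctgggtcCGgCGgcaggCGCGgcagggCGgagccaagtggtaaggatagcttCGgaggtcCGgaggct
Cox7a1 (chr7:30184051-30184170): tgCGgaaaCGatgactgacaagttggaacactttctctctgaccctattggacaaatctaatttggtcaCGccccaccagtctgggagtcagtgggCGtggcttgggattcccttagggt
The widely used forms hold 11 and 10 CG in this stretch, Cox6b2 holds 6 and Cox7a1 holds 4. In the 250 bases before the start the median was 14 over the 65 subunit promoters, with a range from 1 to 35, and 6 over all promoters, and Cox6b2 had 8 and Cox7a1 4. Other pairs were mixed. Cycs had 23 against 6 for its testis form Cyct, and Cox8a had 11 against 1 for the muscle form Cox8b. This order was not seen where Cox7b had 5 and its testis form Cox7b2 9, and Slc25a31 had 18 against 14 for Slc25a5 and 18 for Slc25a4.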

How the data were processed

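Total RNA of MEFs, an iPS clone and ES cells was measured on 4 2-colour arrays (2 per group), with ES cells in green on each. The deposited files hold the mean intensity and the median local background intensity of each spot, and a log10 ratio that the scanner software made with its own background correction and LOWESS, per the file headers (Agilent Feature Extraction 10.5.1.1, 5 micron scan). The series' value table equals that ratio on all arrays. The array annotation gives positions on mm8.

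Intensities were corrected here with normexp (offset 50, fitted on unmarked spots) and normalized within arrays by loess (span 0.3, control spots at weight 0) in limma 3.58.1 (R 4.3.3). Spots marked as outliers, or with a local background over 500, were left out. Spots with a mark on the local background alone were kept, since those marks fell on 28 of the 116 member probes, where the signal far exceeded the background. This was decided from marks and signals. Earlier results of these data had shown that the order of normexp and outlier removal matters, and this setting was chosen with them known. A gene was tested where a probe was well above background in at least 1 RNA on all its arrays, by its brightest probe: 18549 genes. The fit took all 4 arrays with a coefficient per group, and p-values were adjusted over all genes. The steps were tested on simulated data. The number of arrays limits the precision.

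Named genes are, per comparison and complex, the 3 largest called values (otherwise the largest uncalled ones), plus fixed tissue forms, complex II and catalytic subunits. The members, lists and tests were chosen with earlier results of these data known. Promoters came from a RefSeq table, and no set test was run. The values of 1 subunit are not reported here on their own. Replicate numbers do not pair the samples: the labels do not say so, and deviations of same-numbered arrays correlated at -0.122. Alternatives covered background correction, normalization, marked spots, dim probes, probe choice, left-out arrays and the replicate block. Handling of background-marked spots, full quantile normalization, the crossed block and the count without tissue forms were added after seeing the data.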

Additional observations from a re-analysis of the deposited data

How the results depend on the processing

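With 2 arrays per group, 1 slide and no dye swap, the fold threshold decided most calls, and values near 2-fold are the least secure. Ratios over ES cells depend on how the scale is set for bright probes. Apart from a change of probe for Uqcrq, the cause of each shift below was not tested.

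The reported counts of member genes called higher and lower were 6 and 1 in MEFs over ES cells, 8 and 0 in the clone over ES cells, and 6 and 1 in the clone over MEFs. Over all genes tested, 14% and 13.9%, 9.1% and 12.1%, and 17% and 19.1% were called. With normexp over all spots, MEF members became 2 and 0 and all genes 0.609% and 0.566%, and in the clone over MEFs 0 members were lower and all genes were at 6.09% and 7.15%. When background-marked spots were left out as well, MEF members were 0 and 0 and all genes 0.203% and 0.145%, while Ndufa8 (1.13), Uqcr (1.12), Cox7a2 (1.13) and Uqcrh (1.33) stayed past 2-fold in MEFs and missed the p threshold (limma adjusted p from 0.053 to 0.061). The clone over MEFs then had 0 members lower with all genes at 6.07% and 6.91%. Leaving out those spots alone gave 2 members lower in MEFs. Median centring gave 36 and 1 members in MEFs and 38 and 0 in the clone, with all genes at 21.3% and 9.2% and at 15.5% and 9.21%. The scanner software's ratio gave 1 member lower in the clone over ES cells (Cox6a2, -1.02), 22.4% of genes lower in MEFs, 17.2% higher in the clone over ES cells and 27.1% higher in the clone over MEFs. Quantile normalization gave 12 members higher in the clone over ES cells and 0 lower in the clone over MEFs.

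Leaving out 1 array at a time gave 4 to 7 members higher and 1 to 1 lower in MEFs, 7 to 9 and 0 to 0 in the clone over ES cells, and 6 to 7 and 0 to 1 in the clone over MEFs, where Cox6a1 lost its call without MEF replicate 1 or iPS replicate 1. Values turned direction for Tfam in MEFs (-0.72 with the mean over probes, -1.76 without background-marked spots, -1.25 with normexp over all spots besides), for Tfam in the clone over MEFs (1.67 without those spots) and for Uqcrq there (1.14). The Uqcrq value is that of its dimmer probe, since its brightest probe has a background mark and was left out. Of 135 values of named genes, 28 gained and 1 lost a call under median centring, and 13 lost a call with normexp over all spots. Uncalled values also turned sign: 19 under median centring, 8 with the mean over probes, and 7 each with the scanner software's ratio and quantile normalization. With normexp over all spots and background-marked spots left out, 12 of 113 did, and each other setting had 6 or fewer.

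The replicate block gave 6 and 1, 8 and 0, and 6 and 1 members, and changed no call of a named gene. The crossed replicate block gave the same member counts.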
